A study of Mus musculus with 9 samples.

Results

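Tendons and ligaments are built by fibroblasts that lay down aligned collagen under a small set of transcription factors, and a cranial suture is itself a fibrous joint in which such cells meet bone. Scleraxis (Scx) and Mohawk (Mkx) are transcription factors of the tendon lineage, and tenomodulin (Tnmd) is a membrane protein of mature tendon cells that is used as their marker. The other genes described here encode proteins secreted into tendon, ligament and cartilage matrix. The set holds 10 genes chosen by name, Scx, Mkx, Tnmd, Thbs4, Tnxb, Cilp, Cilp2, Chad, Angptl7 and Clec3b, out of 43644 genes in the deposited table. All 10 were present, and all 10 passed the filter on low values that left 29107 genes for testing.

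The libraries were made from the coronal suture, the seam of the skull roof where frontal and parietal bone meet, of C57BL/6 mice aged 7 months. REG mice were Twist1+/- animals that had had suture regeneration surgery at 1 month of age, MUT mice were Twist1+/- animals without surgery, and WT mice were wild type. REG and MUT thus share the loss of 1 copy of Twist1, a transcription factor gene whose haploinsufficiency is known to make the coronal suture fuse early. Each group had 3 libraries of bulk RNA, and nothing in the labels ties the libraries to separate animals, so the spread behind the p-values may be in part technical. The protocol also speaks of 3 pairs of samples and the design text of a collection 1 week after an induction, and neither statement is explained there or was used here. The labels assign MUT replicate 2 a data column whose name carries no group, and REG replicates 1, 2 and 3 columns numbered 2, 3 and 2, and the labels were followed.

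Twist1, the targeted gene, had deposited values of 3.76, 9.19 and 12.2 in REG, 0.987, 8.08 and 0.548 in MUT and 16.2, 23.3 and 23.1 in WT, and every Twist1+/- library lay below every WT library. Estimated reads per library lay between 18276494 and 39377876 in REG, between 2945636 and 10894209 in MUT and between 16356391 and 20019712 in WT. Olfactory and vomeronasal receptor genes, which belong to sensory neurons, gave a density of reads per kb of exon that served as a background. Spread over all exons, that density came to between 0.537% and 0.998% of the reads in REG, to 23.7%, 8.36% and 21.8% in MUT replicates 1, 2 and 3, and to between 0.632% and 0.967% in WT. The MUT libraries therefore stood apart in both depth and background, and every difference that involves MUT carries this difference with it.

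The genes lie on 9 chromosomes of GRCm38 (mm10). Scx spans chromosome 15 from 76457452 to 76459458 and Tnmd chromosome X from 133850980 to 133865577, both on the plus strand. Thbs4 spans chromosome 13 from 92751590 to 92794818 on the minus strand and has 22 separate exon blocks. Tnxb spans chromosome 17 from 34670535 to 34719815 on the plus strand and has the longest exon sequence, 12209 bases. Cilp (65265180 to 65280605) and Clec3b (123150946 to 123157432) lie on the plus strand of chromosome 9. Cilp2 spans chromosome 8 from 69880369 to 69887687 on the minus strand, Chad chromosome 11 from 94565047 to 94569127 on the plus strand, and Angptl7 chromosome 4 from 148495183 to 148500460 on the minus strand. Scx, Angptl7 and Chad sit inside introns of Bop1, Mtor and Acsf2, genes of the opposite strand, with 0 shared exon bases. Whether the counting used strand is not given in the sources used here, so unspliced reads of those host genes cannot be told apart from reads of the 3 genes.

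Scx and Twist1 both encode basic helix-loop-helix factors, a family that binds the E-box, CANNTG. The sequences before the transcript start are shown for Thbs4 and Chad, which were lower in MUT than in WT, and for Tnmd, the marker of mature tendon cells. They are the 250 bases upstream from RefSeq (GRCm38.p6), 5′ to 3′ on the gene's own strand, with each CANNTG, a motif that reads CANNTG on both strands, in capitals.
Thbs4 (chr13:92794819-92795068, minus strand): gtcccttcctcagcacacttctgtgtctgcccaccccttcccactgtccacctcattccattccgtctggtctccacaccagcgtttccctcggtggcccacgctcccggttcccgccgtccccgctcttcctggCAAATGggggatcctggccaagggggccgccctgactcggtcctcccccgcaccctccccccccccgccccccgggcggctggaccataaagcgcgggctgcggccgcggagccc
Chad (chr11:94564797-94565046, plus strand): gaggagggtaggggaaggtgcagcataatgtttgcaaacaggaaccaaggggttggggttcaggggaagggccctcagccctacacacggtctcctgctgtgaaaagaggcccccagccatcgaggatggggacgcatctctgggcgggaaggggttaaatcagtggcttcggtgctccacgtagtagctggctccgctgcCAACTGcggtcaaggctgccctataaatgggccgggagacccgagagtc
Tnmd (chrX:133850758-133851007, plus strand): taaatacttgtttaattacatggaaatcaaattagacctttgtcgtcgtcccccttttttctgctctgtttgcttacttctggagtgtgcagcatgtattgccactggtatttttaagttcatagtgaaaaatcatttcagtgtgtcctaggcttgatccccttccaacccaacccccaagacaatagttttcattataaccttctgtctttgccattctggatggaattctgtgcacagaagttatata
Thbs4 held 1 such motif, CAAATG, starting 115 bases before the transcript start, and Chad held 1, CAACTG, starting 49 bases before it. Tnmd held 0 in this window. Sequences were found for 7 of the 10 genes: 6 held at least 1 CANNTG, with 3 each for Cilp and Angptl7, and of 32851 promoter windows of the same length 66.2% held at least 1. These are matches of letters in a window, and binding was not measured.

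Thbs4 had the widest difference of the set. Thbs4 encodes thrombospondin-4, a secreted protein of the matrix that is abundant in tendon and where muscle joins tendon. The deposited values are a scaled signal whose upper quartile is the same in every library. Those of Thbs4 were 61.2, 29.3 and 36.8 in REG, 1.73, 1.53 and 0.973 in MUT and 13.4, 43.8 and 37.0 in WT. All 3 MUT libraries lay below every REG and every WT library, and REG and WT overlapped. In estimated reads Thbs4 held between 1510 and 6568 in REG, between 14.3 and 105 in MUT and between 473 and 1663 in WT. Against the receptor-gene background, its reads were from 330 to 744 times that density in REG, from 1.01 to 2.21 times in MUT and from 114 to 501 times in WT, so that in MUT the gene was at or close to the background.

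Tested with limma over all 29107 genes, with p adjusted by Benjamini-Hochberg and a call at adjusted p under 0.05, Thbs4 fell by 4.02 ± 0.50 on the log2 scale in MUT relative to WT (SE, adjusted p = 0.00123). On the fitted scale of log2(value + 0.367) this is 0.0617 times the WT level, with a 95% interval from 0.0286 to 0.133. In REG relative to MUT it rose by 4.55 ± 0.50 (SE, adjusted p = 0.00101), 23.3 times the MUT level with an interval from 10.8 to 50.3. In the authors' deposited table the log2 ratio of Thbs4 was 4.91 for REG over MUT with an FDR of 0.00069, and 4.48 for WT over MUT with an FDR of 0.000924.

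**Figure D1:**
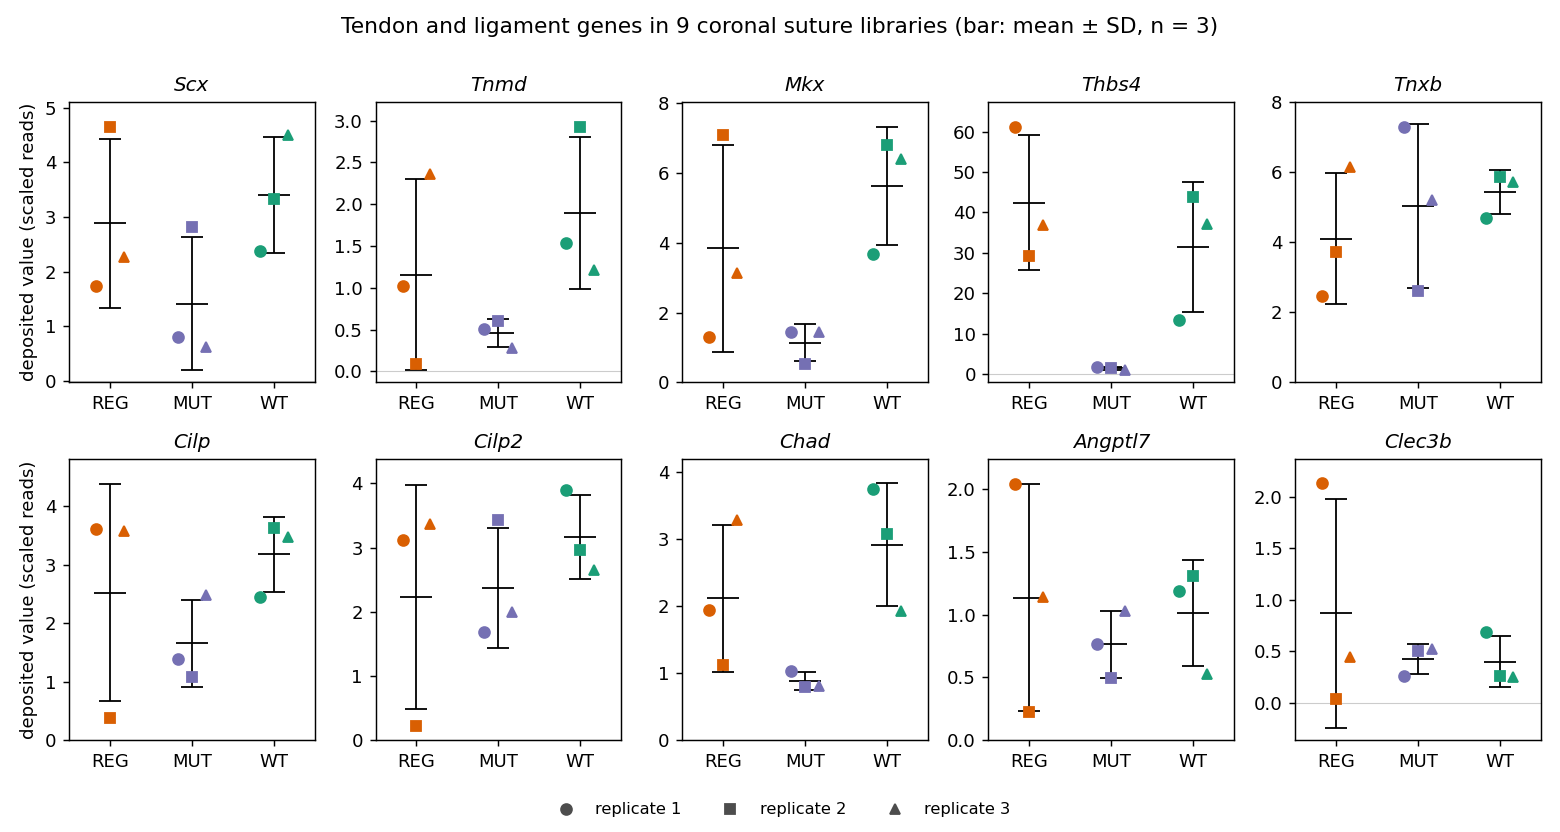
Deposited values (a scaled signal, labelled scaled reads on the y axis, one scale per gene) of the 10 genes in REG, MUT and WT. Each symbol is a library, and the bar is the mean ± SD (n = 3). Thbs4 sits between 0.973 and 1.73 in the MUT libraries and at 13.4 or above in all REG and WT libraries; REG replicate 2 is the lowest REG library for 7 of the 10 genes and the highest for Scx and Mkx.

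Of the 2 transcription factors, Mkx was called in 1 comparison and Scx in none. Mkx, a homeobox factor needed for tendon collagen production in mice, spans chromosome 18 from 6934518 to 7004780 on the minus strand, and 201 of its 4095 exon bases (4.9%) also belong to AC148004.2, a transcript of the same strand that was not analysed here. It had values of 1.30, 7.08 and 3.12 in REG, 1.44, 0.535 and 1.45 in MUT and 3.68, 6.80 and 6.39 in WT. Every MUT library lay below every WT library, and REG replicate 1 lay among the MUT libraries. Mkx fell by 2.02 ± 0.56 (SE, log2) in MUT relative to WT, adjusted p = 0.0205 by limma, and the FDR in the authors' deposited table was 0.0302. The call was lost without MUT replicate 2 (adjusted p = 0.0601), WT replicate 2 (0.0801) or WT replicate 3 (0.0726), with limma in each case and log2 changes of -1.68, -1.87 and -1.91. REG exceeded MUT by 1.29 ± 0.56 on the log2 scale, which was not called (limma adjusted p = 0.0944).

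Scx, a basic helix-loop-helix factor of tendon progenitors, had values of 1.74, 4.65 and 2.27 in REG, 0.804, 2.82 and 0.623 in MUT and 2.38, 3.32 and 4.49 in WT. MUT replicate 2 lay inside the range of the other groups, and MUT replicates 1 and 3 lay below every REG and WT library. Over the receptor-gene background, the reads of Scx were 6.92 times in MUT replicate 2, which was the 1 value above 5 times among the 30 MUT values of the set. The difference of MUT and WT, -1.25 ± 0.52 (SE, log2), was not called (limma adjusted p = 0.0884). Without MUT replicate 2 it was -1.77 (adjusted p = 0.0202, limma), and REG then exceeded MUT by 1.49 (adjusted p = 0.0332, limma) against 0.97 ± 0.52 with all libraries (adjusted p = 0.172). Tcf15, a related factor, had a difference of -0.77 ± 0.38 between MUT and WT that was not called (adjusted p = 0.144).

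Tnmd, the membrane protein of mature tendon cells, had values of 1.02, 0.0897 and 2.36 in REG, 0.511, 0.599 and 0.276 in MUT and 1.54, 2.93 and 1.22 in WT. The MUT and WT libraries did not overlap, and the REG libraries spanned 26.4 times from lowest to highest. The MUT and WT difference was -1.40 ± 0.60 (SE, log2) and was not called (limma adjusted p = 0.0961). It was called with only MUT and WT in the fit (adjusted p = 0.0139), and without REG replicate 2 (0.0213) or REG replicate 3 (0.0463), where the same change of -1.40 stood against a smaller estimate of the spread. Under quantile scaling it was -1.89 and also called (adjusted p = 0.0311). Its close relative Cnmd, a cartilage gene, had a difference of 0.42 ± 0.48 that was not called (adjusted p = 0.518).

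Among the matrix genes, Chad, which encodes chondroadherin, a leucine-rich protein that binds collagen and integrins, had values of 1.95, 1.12 and 3.29 in REG, 1.04, 0.798 and 0.807 in MUT and 3.75, 3.08 and 1.93 in WT. All 3 MUT libraries lay below every REG and every WT library. Chad fell by 1.36 ± 0.41 (SE, log2) in MUT relative to WT (limma adjusted p = 0.0280), whereas the FDR in the authors' deposited table was 0.0616. The limma call was lost when MUT replicate 1, 2 or 3 or WT replicate 1 or 2 was left out, with adjusted p from 0.0558 to 0.0971. REG exceeded MUT by 0.90 ± 0.41, which was not called (limma adjusted p = 0.109). Acsf2, the gene in whose intron Chad lies, had differences of -0.96 ± 0.75 in MUT relative to WT and -0.87 ± 0.75 in REG relative to MUT, neither of them called (adjusted p = 0.343 and 0.398).

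The other matrix genes did not pass the test in any comparison. Tnxb encodes tenascin-X, a large matrix protein whose loss in humans gives a form of Ehlers-Danlos syndrome, and had values of 2.46, 3.71 and 6.14 in REG, 7.27, 2.6 and 5.20 in MUT and 4.70, 5.85 and 5.70 in WT. The last 3 bases of its exons are shared with Cyp21a2-ps, a pseudogene of the opposite strand that was higher in MUT than in WT by 1.74 ± 0.34 (SE, log2, limma adjusted p = 0.00559), with 6 to 86.6 estimated reads in MUT and 0 to 6.65 in WT. Every REG and WT library lay below the filter value of 0.367 for this pseudogene, so it was tested through its MUT libraries. Its reads were from 2.21 to 3.66 times the receptor-gene density in MUT and from 0 to 3.19 times in WT. The call alone therefore does not show more RNA of the pseudogene in MUT. An RNA gene, Gm24389, lies in a Tnxb intron and was not analysed here. The MUT range enclosed the WT range, and the MUT and WT difference was -0.20 with a 95% interval from -1.19 to 0.79. Cilp, a cartilage matrix protein known to bind TGF-beta, had values of 3.61, 0.382 and 3.57 in REG, 1.38, 1.08 and 2.49 in MUT and 2.44, 3.62 and 3.47 in WT, and all 3 groups overlapped. Cilp2, its paralog, had values of 3.11, 0.221 and 3.37 in REG, 1.68, 3.43 and 2.00 in MUT and 3.89, 2.96 and 2.64 in WT, again with overlap of all groups.

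Angptl7, a secreted angiopoietin-like protein, had values of 2.04, 0.227 and 1.15 in REG, 0.763, 0.499 and 1.03 in MUT and 1.19, 1.31 and 0.530 in WT, and the groups overlapped. Clec3b encodes tetranectin, a secreted protein that binds plasminogen, and had values of 2.13, 0.0337 and 0.443 in REG, 0.256, 0.499 and 0.525 in MUT and 0.683, 0.257 and 0.253 in WT. Its REG libraries spanned 63.3 times from lowest to highest, the widest spread of the set, and REG replicate 2 rested on 2.01 estimated reads. Clec3b was 0.08 ± 0.60 (SE, log2) higher in MUT than in WT, the 1 positive difference of the set in that comparison.

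Counted over the set, 3 of 10 genes were lower in MUT than in WT (Thbs4, Mkx and Chad), and 0 of 10 were higher (limma). Of all genes tested 35.1% were called, 14.6% lower and 20.5% higher. The median log2 change was -1.05 over the 10 genes and 0.18 over all genes tested. The deposited values of MUT and WT did not overlap for 4 of the 10 genes (these 3 and Tnmd, all with MUT lower), and for 58.5% of all genes tested. Between REG and MUT, 1 of 10 was higher in REG (Thbs4) and 0 of 10 were lower, while 36.6% of all genes were called, 11.8% higher and 24.8% lower. The median there was 0.40 over the 10 genes and -0.36 over all genes. REG and MUT did not overlap in deposited values for 2 of 10 (Thbs4 and Chad, both with REG higher), and for 42.5% of all genes. These separations depended on scaling. With reads scaled to library totals, MUT overlapped WT for Mkx, Tnmd and Chad and overlapped REG for Chad, while Thbs4 stayed apart from both. The share of all genes that did not overlap on that scale was not computed. MUT is part of both comparisons, so a gene low in MUT moves in opposite directions in them.

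The Thbs4 call held under every alternative tried in both comparisons, with log2 changes from -4.54 to -2.66 in MUT relative to WT and from 3.12 to 5.25 in REG relative to MUT. The calls of Mkx and Chad in MUT relative to WT were lost when reads were scaled to library totals, with log2 changes of -1.01 and -0.41, under which the median of all genes moved to 1.11 and Mkx and Chad lay at -2.12 and -1.52 relative to it. When the background was taken off, Mkx stayed lower in MUT than in WT (-2.91, limma adjusted p = 0.0147) and rose in REG relative to MUT (2.51, adjusted p = 0.0289), and Chad was not called (-1.05, adjusted p = 0.185).

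**Figure D2:**
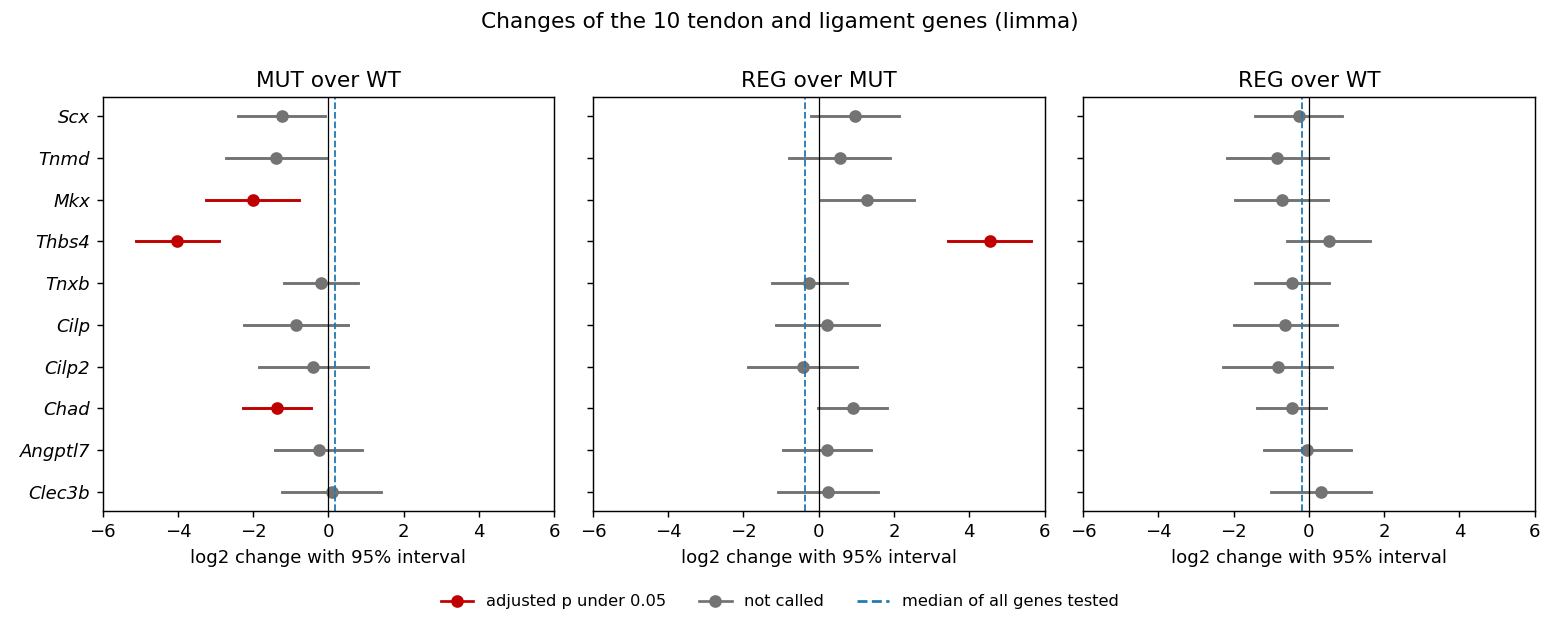
Log2 change (x axis, with its 95% interval from limma) of each gene for MUT over WT, REG over MUT and REG over WT; red marks an adjusted p under 0.05, and the dashed line is the median of all genes tested. Thbs4, Mkx and Chad are called in MUT over WT, Thbs4 alone in REG over MUT, and none in REG over WT.

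How far the low values in MUT can be read is set by the background. In MUT replicates 1, 2 and 3, 0, 5 and 1 of the 10 genes had over 2 times the reads that the receptor-gene density would give for their exon length. Over the 30 gene and library pairs of each group, 28 in REG, 6 in MUT and 30 in WT were above 2 times the background, and the median was 34.2 times in REG, 1.35 times in MUT and 25.3 times in WT. Fewer than 10 reads lay behind 2 pairs in REG, 6 in MUT, all in replicate 2, and 2 in WT. At this level in MUT most values of the set were close to the background, and in bulk RNA fewer cells of a type and less RNA per cell cannot be told apart.

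**Figure D3:**
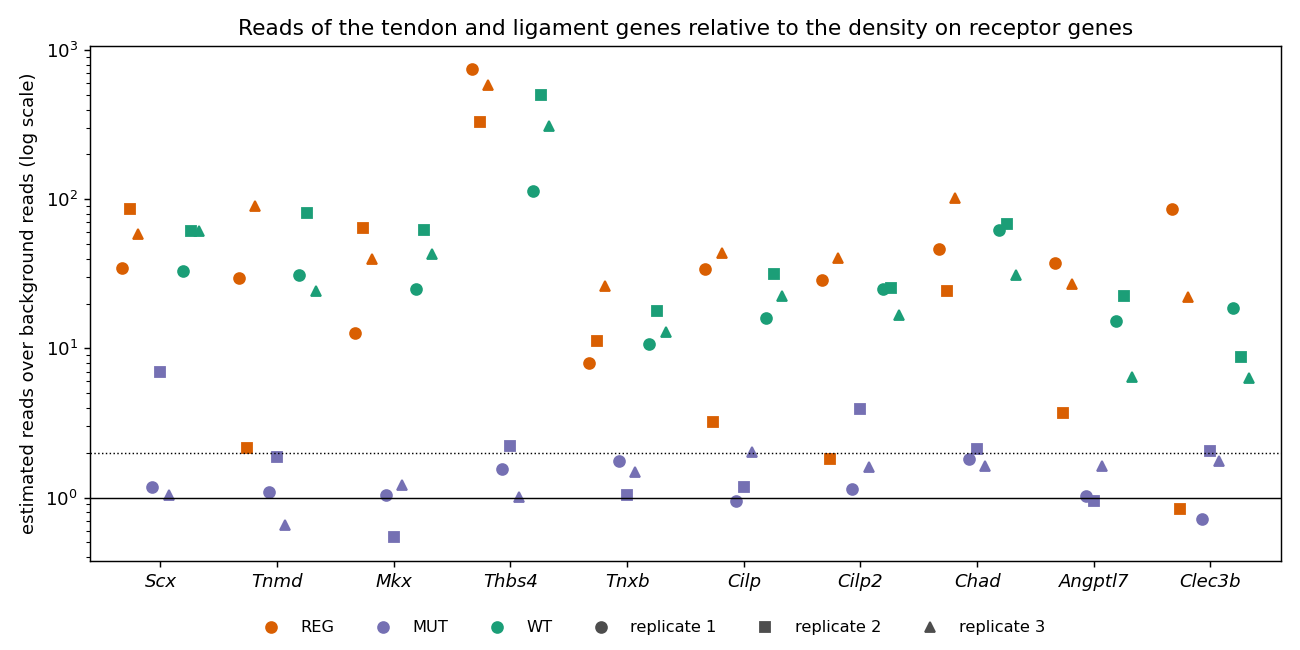
Estimated reads of each gene over the reads expected from the density on receptor genes (y axis, log scale) in the 9 libraries; the solid line is 1 time and the dotted line 2 times that density. The MUT libraries sit between 0.541 and 6.92, while Thbs4 lies at 114 or above in all REG and WT libraries.

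Levels can be ordered between genes per kb of exon and per 1e+06 reads. Thbs4 led in REG with 34.0 ± 14.5 reads per kb per 1e+06 reads and in WT with 19.2 ± 9.0 (SD, n = 3), and its range did not overlap that of the next gene in either group. After it the order in REG was Scx (3.89 ± 2.53), Chad, Mkx, Clec3b, Tnmd, Cilp, Angptl7, Cilp2 and Tnxb (0.855 ± 0.291), and the range of each of these overlapped that of its neighbour. In MUT the order ran from Scx (2.88 ± 1.52) through Chad, Cilp2, Tnxb, Thbs4, Cilp, Clec3b, Angptl7 and Tnmd to Mkx (1.48 ± 0.97), and all neighbours overlapped. Only 6 of the 30 gene and library pairs in MUT were above 2 times the background, so this order says little about the levels of the genes. In WT Chad (3.54 ± 1.22), Scx, Tnmd and Mkx (2.77 ± 0.73) followed Thbs4, and Mkx did not overlap Cilp (1.51 ± 0.25), the next gene. Cilp2 came after Cilp and did not overlap Angptl7 (0.930 ± 0.382), which was followed by Tnxb and Clec3b (0.785 ± 0.560).

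**Figure D4:**
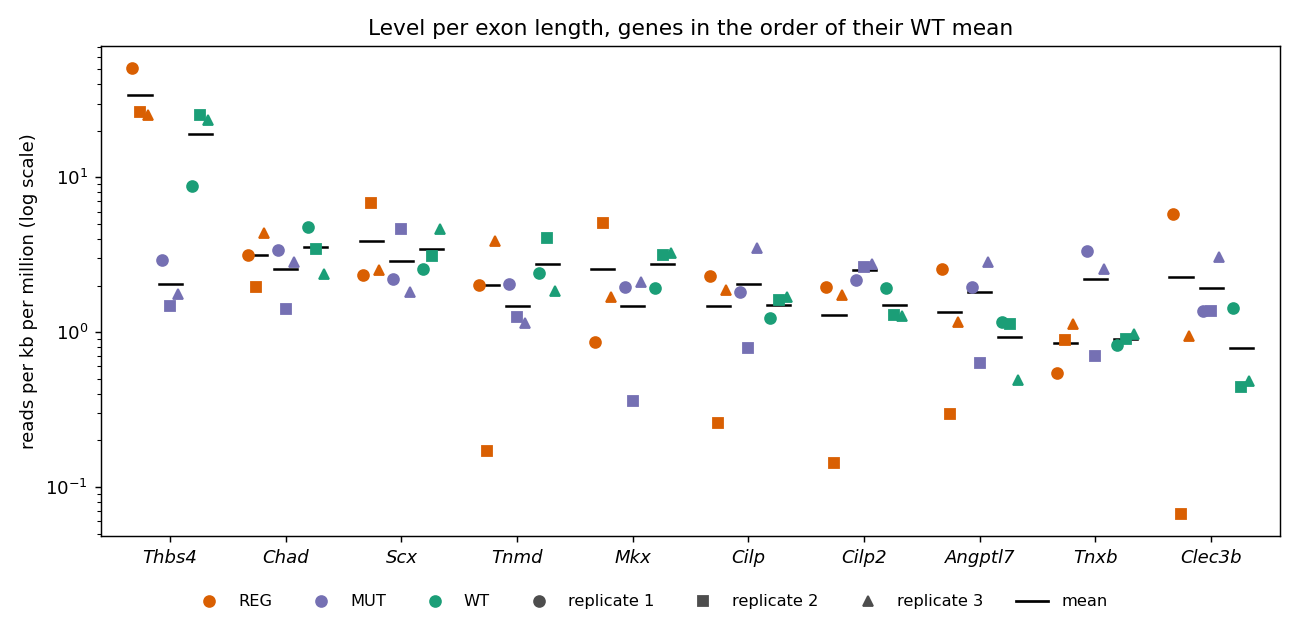
Reads per kb of exon per 1e+06 reads (y axis, log scale) for each gene in REG, MUT and WT, with genes in the order of their WT mean; each symbol is a library and each short bar a group mean. Thbs4 is set apart in REG and WT (means 34.0 and 19.2) but not in MUT (2.06), and REG replicate 2 lies far below the other REG libraries for Tnmd, Cilp, Cilp2, Angptl7 and Clec3b.

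The REG libraries differed among themselves more than those of the other groups, of which MUT had most values close to the background. The data column names of REG replicates 1 and 2 end in the same numbers as those of WT replicates 2 and 3. That of REG replicate 3 ends in a number of its own. No use was made of these numbers. From lowest to highest library, the median gene of the set spanned 7.20 times in REG, 2.12 times in MUT and 1.92 times in WT. REG replicate 2 was the lowest of the 3 for Tnmd, Thbs4, Cilp, Cilp2, Chad, Angptl7 and Clec3b, and the highest for Scx and Mkx. Its median over the set was 0.750 in deposited values, against 2.09 in REG replicate 1 and 3.20 in REG replicate 3. With REG replicate 3 as the sole REG library, and its spread taken to be that of the other groups, Tnmd (1.74, adjusted p = 0.0358) and Chad (1.56, adjusted p = 0.0353) were called higher than in MUT beside Thbs4 (4.41, adjusted p = 0.00559), all by limma.

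Skeletal muscle genes, whose cells lie next to tendon, had high sums in REG replicates 1 and 2 and not in REG replicate 3. The 17 muscle markers summed to deposited values of 330, 532 and 78.3 in REG, 53.8, 48.2 and 66.0 in MUT and 68.0, 118 and 62.6 in WT. Of the 17, 7 rose and 3 fell in REG relative to MUT, with Tnni2 and Myh1, genes of fast fibres, up by 3.54 ± 0.95 and 3.51 ± 0.95, and Myod1, the factor of muscle precursors, down by 1.64 ± 0.37 (SE, log2, adjusted p = 0.0169, 0.0175 and 0.00877 by limma). The counts in REG relative to MUT depended on scaling and on libraries: 3 were higher and 4 lower when reads were scaled to library totals, 2 higher and 2 lower with a pseudocount 10 times higher, 4 of 16 higher and 1 lower with the background taken off, and 0 higher and 3 lower with REG replicate 3 as the sole REG library. They were 3 and 3 without REG replicate 1, 5 and 1 without REG replicate 2, and 0 and 0 with MUT replicate 2 as the sole MUT library. In MUT relative to WT 3 rose and 1 fell, both under the shares of all genes tested, 20.5% higher and 14.6% lower. For REG relative to MUT the shares of all genes were 11.8% higher and 24.8% lower. In REG relative to WT 0 of 17 were called, 12 had an unadjusted p under 0.05, and the median log2 change was 2.68. Without REG replicate 3, 9 were called higher and 1 lower than in WT (median 3.76), and with that library alone 0 were called (median 0.50), all by limma. None of the 17 was at 0 reads in every library of a group, and Myog in REG and Tnnc2 in MUT were at 0 in at least 1 library. The part of muscle in the values of Thbs4 and the other genes was not tested.

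The comparison of REG with WT asks how far the operated Twist1+/- suture differs from the wild type. By limma 0 of 10 genes were called, and 0 (0%) of the 29107 genes tested, while at an unadjusted p under 0.05 there were 0 of the 10 and 2755 of all. The median log2 change was -0.45 over the set and -0.18 over all genes, and REG and WT did not overlap for 0 of the 10 and for 16.1% of all genes. Thbs4 was 42.4 ± 16.7 in REG and 31.4 ± 16.0 in WT (SD, n = 3), a difference of 0.53 with a 95% interval from -0.58 to 1.63. Mkx was 3.83 ± 2.95 in REG and 5.62 ± 1.69 in WT, with an interval from -1.96 to 0.51. Tnmd, at 1.16 ± 1.14 in REG and 1.89 ± 0.91 in WT, had an interval from -2.18 to 0.50, and Scx, at 2.88 ± 1.55 in REG and 3.40 ± 1.06 in WT, one from -1.44 to 0.89. These intervals all include 0, and they reach to 1.63 with REG higher (Thbs4) and to -2.18 with REG lower (Tnmd), so that a missing call does not show equal levels. In simulated data with known changes, 0% of changes of 2-fold and 14% of changes of 4-fold were recovered for this comparison. The simulation gave each gene the same spread in all groups and let no value fall below 0, which shortens the falls of low genes. The rates therefore do not measure the sensitivity of REG against WT.

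The lists of other tendon genes had median changes further from 0 than the set in both comparisons with MUT. Apart from Thbs4, the WT means of the set ran from 0.398 (Clec3b) to 5.62 (Mkx), while the lists held genes from Kera (0.232) to Col1a1 (21355). The background and the pseudocount limit how far a low gene can fall, so the medians are not on equal terms. The part of level in this gap was not tested. For the counts below, the shares of all genes tested were 14.6% lower and 20.5% higher in MUT than in WT. In REG relative to MUT they were 11.8% higher and 24.8% lower. Of 19 tendon collagens and leucine-rich proteoglycans, 17 were lower and 1 higher in MUT than in WT, with a median log2 change of -3.67 (all genes tested, 0.18). Those of smallest p were Col6a2, an alpha chain of the beaded collagen VI, which fell by 5.74 ± 0.36, Aspn, or asporin, by 6.39 ± 0.43, and Col6a3 by 5.78 ± 0.39 (SE, limma adjusted p of at most 7.74e-05). Between REG and MUT the median was 3.19 (all genes, -0.36), with 17 of the 19 higher in REG and 1 lower. Col6a2 rose by 4.91 ± 0.36, Col6a3 by 5.17 ± 0.39 and Aspn by 5.52 ± 0.43 (SE, limma adjusted p of at most 0.000239). Kera, keratocan, was the 1 gene of the list that went the other way, higher in MUT than in WT by 1.03 ± 0.34 (adjusted p = 0.0417) and lower in REG than in MUT by 1.47 ± 0.34 (adjusted p = 0.0103), at means of 0.0755 in REG, 0.884 in MUT and 0.232 in WT. The REG and WT means of Kera lay below the filter value of 0.367, so it was tested through its MUT libraries. MUT was also the group with the highest background, so the call alone does not show more Kera RNA there. No gene of the list was called higher in MUT than in WT under quantile scaling, a pseudocount 10 times higher or the replicate block. The same held with MUT replicate 2 alone, or without MUT replicate 1 or 3 or any 1 WT library. None was called higher under trimmed-mean scaling, background subtraction or a filter 10 times stricter either, but each of these left 18 of the 19 genes to test. Kera was not tested under the stricter filter.

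Of 18 other genes of tendon matrix and its assembly, 14 were lower and 1 higher in MUT than in WT, with a median of -2.62. Postn, or periostin, fell by 5.85 ± 0.43, the matrix protease gene Htra1 by 4.58 ± 0.41 and Fndc1 by 3.83 ± 0.43 (SE, limma adjusted p = 0.000132, 0.000425 and 0.000923). Of the 18, 13 rose and 2 fell in REG relative to MUT (median 2.59). Postn rose by 5.96 ± 0.43, Htra1 by 4.15 ± 0.41 and Fn1, fibronectin, by 3.14 ± 0.39 (SE, limma adjusted p = 0.000174, 0.00074 and 0.00129).

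Of 18 transcription factors and signals of tendon, 10 were lower and 0 higher in MUT than in WT, with a median of -1.62. The ligand genes Tgfb3 and Tgfb2 fell by 3.60 ± 0.44 and 2.68 ± 0.35, and Smad3, which carries the TGF-beta signal to the nucleus, by 2.47 ± 0.40 (SE, limma adjusted p = 0.00115, 0.0014 and 0.00262). Of the same 18, 5 rose and 2 fell in REG relative to MUT (median 0.63). Tgfb2 rose by 2.29 ± 0.35 and Tgfb3 by 2.47 ± 0.44, whereas Gdf6, a ligand of joints and tendon, fell by 1.79 ± 0.35 (SE, limma adjusted p = 0.00236, 0.00363 and 0.00508). When reads were scaled to library totals, 3 of the 18 were lower and 2 higher in MUT than in WT, and 3 were higher and 3 lower in REG than in MUT.

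Of 18 tested relatives of the 10 genes, 11 were lower and 1 higher in MUT than in WT, with a median of -2.25. Thbs2, a thrombospondin, fell by 5.61 ± 0.41, Tnn, the gene of tenascin-N, fell by 8.12 ± 0.49, and Angptl2 fell by 4.29 ± 0.50 (SE, limma adjusted p = 0.000123, 4.22e-05 and 0.00107). The same 3 had the smallest p in REG relative to MUT, where 9 of 18 were higher and 1 lower (median 1.56): Tnn rose by 6.67 ± 0.49, Thbs2 by 4.71 ± 0.41 and Angptl2 by 3.37 ± 0.50 (SE, limma adjusted p = 0.000175, 0.000391 and 0.00211). Tnr, a tenascin of the nervous system, was the 1 relative that moved the other way in both, at 1.09 ± 0.96 in REG, 7.05 ± 1.22 in MUT and 1.87 ± 0.76 in WT (SD, n = 3). Between REG and WT 0 genes of the 4 lists were called by limma, with unadjusted p under 0.05 for 7 of 18 transcription factors and signals, 1 of 19 collagens and proteoglycans, 1 of 18 other matrix genes and 3 of 18 relatives. Scaled to library totals, the genes called lower in MUT than in WT numbered 16 collagens and proteoglycans, 8 other matrix genes and 6 relatives. With the background taken off they numbered 12, 6 and 6, and 4 transcription factors and signals, and with MUT replicate 2 as the sole MUT library 13, 8 and 8, and 3. The genes called higher in REG than in MUT numbered 13 collagens and proteoglycans, 10 other matrix genes and 6 relatives when scaled to library totals, 12, 7 and 4 with the background taken off, and 10, 7 and 7 with MUT replicate 2 as the sole MUT library. Those of the transcription factors and signals numbered 2 with the background taken off, 1 with MUT replicate 2 alone and 9 under trimmed-mean scaling.

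**Figure D5:**
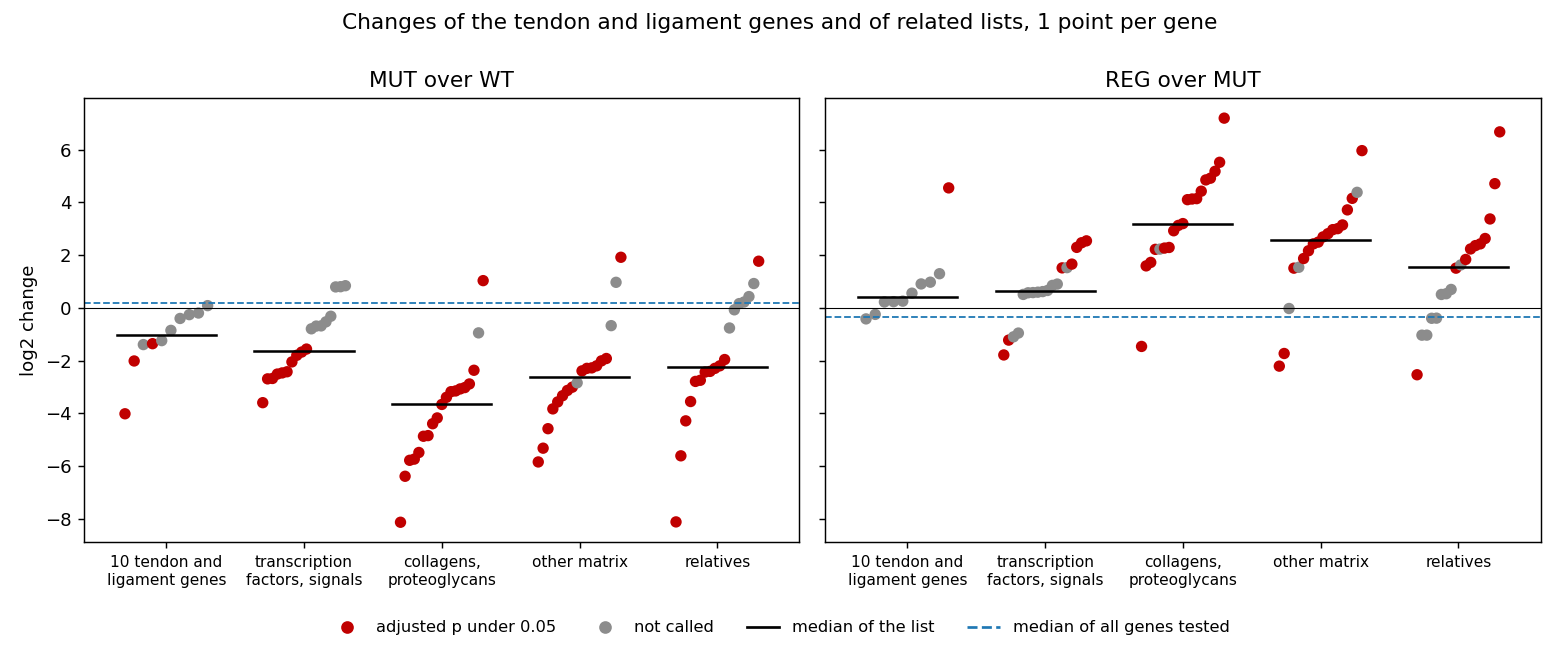
Log2 change (y axis) of the 10 genes and of 4 related lists for MUT over WT and REG over MUT, with 1 point per gene, red for an adjusted p under 0.05, a black bar at the list's median and a dashed line at the median of all genes tested. The median is -1.05 for the 10 genes and -3.67 for the collagens and proteoglycans in MUT over WT, and 0.40 and 3.19 in REG over MUT.

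Bone genes moved in the same direction at the median, with log2 changes of -2.10 in MUT relative to WT and 1.94 in REG relative to MUT, but not in every library. The 12 osteoblast markers summed to deposited values between 10247 and 23373 in REG, to 1814, 11416 and 967 in MUT and to between 17473 and 31801 in WT, and none was at 0 reads in any library. MUT replicate 2 thus lay inside the REG range, and its value of Bglap, 654, was above the 64.1 to 100 of WT. With MUT replicate 2 as the sole MUT library the medians were -1.16 in MUT relative to WT and 0.63 in REG relative to MUT. Of the 12, 7 were lower and 0 higher in MUT than in WT, and 3 were lower with the background taken off. The part that this difference has in the changes of the tendon genes was not tested.

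For the genes with the clearest roles, those with the most similar course over the 9 libraries were found among 18656 genes by the root mean square difference between standardized log2 values, where 0 means an identical course. For Thbs4 they included Sec24d (0.155) and Fn1 (0.158). For Mkx they were Erich1 (0.189), Tomm40 (0.220) and mt-Ts1 (0.226), for Scx Pgap2 (0.218), Arfip2 (0.230) and Rnd3 (0.274), and for Tnmd Prkca (0.164), Sema3b (0.167) and Zbtb38 (0.195).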

How the data were processed

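RNA of 9 coronal suture libraries was sequenced from a single end for 75 cycles on a NextSeq500, per the labels' protocols, from RNA with an integrity number above 9. Reads were aligned with STAR 2.6.1d to mm10 and handled in Partek, per the submitters' processing notes. How reads were counted and scaled is not given in the sources used here. As deposited, the matrix holds a scaled signal per gene and library, whose upper quartile is the same (about 2.76) in every library. It has no gene names, so its columns were tied to the authors' deposited gene table by 4 statistics per gene, all of which matched (43644 genes, relative tolerance 1e-06). That deposited table also gives the authors' p-value, FDR and log2 ratio for each pair of groups. Exon lengths and positions came from GENCODE M21, where 42973 genes (98.5%) were found by symbol.

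Estimated reads are each value divided by the smallest in its library, less 1. Of low values, only 35.9% to 66.0% per library lay within 0.1 of a whole read, so no count test was used. Values entered as log2(value + 0.367), the pseudocount being 1 millionth of the median column sum, and a gene was tested when 3 or more libraries reached 0.367. One fit of all 9 libraries with group as the sole term was made with limma 3.58.1 in R 4.3.3, two-sided, with Benjamini-Hochberg adjustment over 29107 genes. Fold changes are on the log2(value + 0.367) scale, which understates the change of low genes. An exact permutation test of 3 against 3 cannot go below p = 0.1 and was not used. Background was the median density of reads on 1367 genes for olfactory and vomeronasal receptors.

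On simulated data with 200 changed genes among 29107 the fit was checked: for MUT against WT it recovered 0% at 2-fold, 10% at 4-fold, 36% at 8-fold and 60% at 32-fold. In the data 35.1% of genes were called in that comparison, which makes the Benjamini-Hochberg cutoff on p looser than in the simulation. The recovery rates therefore do not measure the sensitivity of MUT against WT. Alternatives were total-read, trimmed-mean and quantile scaling, background subtraction, no filter and one 10 times stricter, a pseudocount 10 times higher or lower, limma with trend, only the 2 groups compared, a replicate block, single REG or MUT subsets, and each library left out. The 10 genes and all gene lists were chosen with earlier results of these data known. Named were the 10 genes, genes overlapping them, Twist1, the 3 genes of smallest p in each list for MUT against WT and REG against MUT (for muscle, the second of these), and the 3 most alike genes for Scx, Tnmd, Mkx and Thbs4, of which 1 is not reported here. Kera, Tnr, Tcf15 and Cnmd were named after their values were seen. Python 3.11.15 with pandas 2.3.3, numpy 2.4.6 and matplotlib 3.10.9 was used for tables and plots.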

Additional observations from a re-analysis of the deposited data

How the results depend on the processing

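Thbs4 was called in both comparisons with MUT under every alternative run. The count of the 10 genes lower in MUT than in WT, 3 with the settings of the report, was 1 (Thbs4) under total-read scaling and 1 (Thbs4) with MUT replicate 2 as the sole MUT library, whose spread was taken to be that of the other groups, and ranged from 1 to 4 when 1 library was left out. It was 1 (Thbs4) without WT replicate 2. It was 4 under quantile scaling (with Tnmd). The trend option of limma lost Chad (adjusted p = 0.0555). The count higher in REG than in MUT, 1 in the report, was 3 under trimmed-mean scaling and 3 under quantile scaling (Thbs4, Mkx and Chad), 2 under background subtraction (Thbs4 and Mkx), and 3 with REG replicate 3 alone (Thbs4, Chad and Tnmd). It ranged from 1 to 2 when 1 library was left out: 2 without REG replicate 1 (with Mkx), without REG replicate 2 (with Chad) or without MUT replicate 2 (with Scx). In REG relative to MUT the median of all genes was -0.36 in the report, 0.27 under trimmed-mean scaling and 0.046 under quantile scaling. Relative to that median, Mkx lay at 1.65, 1.53 and 1.68 and Chad at 1.26, 1.10 and 1.47, in the same order. The share of all genes called under each alternative is not given here. The counts of the set and of the lists therefore include any shift of all genes. No gene of the set was called in REG relative to WT under any alternative. A filter 10 times stricter left 3 of the 10 genes to test, and trimmed-mean scaling left 9. Correlations of same-numbered deviations from the group means ran from -0.196 to 0.101, and those of differently numbered ones from -0.218 to 0.379. With 3 libraries per group such deviations depend on one another, so this check cannot tell whether the libraries were paired. With the replicate number as a block the counts were 3, 1 and 0, as without it. The cause of these changes was not tested.

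Differences that changed sign were all uncalled. Under total-read scaling, where the median of all genes moved to 1.11 in MUT relative to WT and to -1.04 in REG relative to MUT, MUT relative to WT gave 0.97 for Tnxb, 0.20 for Cilp, 0.69 for Cilp2 and 0.60 for Angptl7. REG relative to MUT then gave -0.52 for Cilp, -0.40 for Angptl7 and -0.23 for Clec3b, and REG relative to WT 0.049 for Scx and 0.20 for Angptl7. Under quantile scaling MUT relative to WT gave 0.36 for Tnxb and -0.56 for Clec3b, and REG relative to WT 0.11 for Angptl7. Under trimmed-mean scaling REG relative to MUT gave 0.39 for Tnxb and 0.10 for Cilp2, and REG relative to WT 0.12 for Scx and 0.23 for Angptl7. Background subtraction gave 0.41 for Tnxb in REG relative to MUT, and 0.051 for Scx and 0.20 for Angptl7 in REG relative to WT. A pseudocount 10 times lower gave -0.089 for Clec3b in REG relative to MUT, and 10 times higher 0.025 for Angptl7 in REG relative to WT.

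With MUT replicate 2 alone, MUT relative to WT gave 0.12 for Cilp2, and REG relative to MUT -0.074 for Scx and 0.51 for Tnxb. With REG replicates 1 and 2 alone, REG relative to MUT gave -0.040 for Tnmd and -0.16 for Cilp. With REG replicate 3 alone it gave 0.37 for Tnxb and 0.50 for Cilp2, and REG relative to WT gave 0.34 for Tnmd, 0.18 for Tnxb, 0.17 for Cilp, 0.10 for Cilp2, 0.20 for Chad and 0.19 for Angptl7. With 1 library left out, MUT relative to WT ranged from -0.50 to 0.18 for Tnxb and from -0.046 to 0.33 for Clec3b. REG relative to MUT ranged from -0.040 to 1.25 for Tnmd, from -0.63 to 0.052 for Tnxb, from -0.17 to 1.03 for Cilp, from -0.88 to 0.45 for Cilp2, from -0.23 to 0.78 for Angptl7 and from -0.46 to 0.86 for Clec3b. REG relative to WT ranged from -1.03 to 0.18 for Cilp, from -1.29 to 0.045 for Cilp2, from -0.49 to 0.52 for Angptl7 and from -0.38 to 0.94 for Clec3b.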

Other observations

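Cartilage and dura genes formed further lists. Of all genes tested, 14.6% were lower and 20.5% higher in MUT than in WT, and 11.8% were higher and 24.8% lower in REG than in MUT. Of 14 chondrocyte markers tested, 2 were lower and 1 higher in MUT than in WT, with a median log2 change of -0.37. The counts of this list in both comparisons were close to or under the shares of all genes. Sox6, a partner of Sox9 in cartilage, fell by 1.48 ± 0.43 and Col2a1, the main cartilage collagen gene, by 1.73 ± 0.57, whereas Matn3 rose by 1.30 ± 0.44 (SE, limma adjusted p = 0.0259, 0.0405 and 0.0447). In REG relative to MUT 2 rose and 1 fell: Acan, aggrecan, rose by 2.33 ± 0.61 and Col2a1 by 1.86 ± 0.57, and Matn3 fell by 1.36 ± 0.44 (SE, limma adjusted p = 0.0159, 0.03 and 0.0363). Of 10 dura and arachnoid markers tested, 4 were lower and 1 higher in MUT than in WT, and 1 was higher and 1 lower in REG than in MUT. Foxp2, a forkhead factor gene, fell by 1.56 ± 0.40, Aldh1a2, which makes retinoic acid, by 2.38 ± 0.67 and Foxc1 by 2.04 ± 0.59 in MUT relative to WT (SE, limma adjusted p = 0.0161, 0.0223 and 0.0238). In REG relative to MUT Fxyd5 rose by 2.45 ± 0.48 and Slc6a13 fell by 1.36 ± 0.40, and Foxc2, at 1.18 ± 0.42, was not called (SE, limma adjusted p = 0.00509, 0.0255 and 0.0516). When reads were scaled to library totals, 0 chondrocyte markers were lower and 3 higher in MUT than in WT, and 0 dura and arachnoid markers were lower and 1 higher. In REG relative to MUT, 0 chondrocyte markers were then higher and 4 lower, while under trimmed-mean scaling 5 were higher and 0 lower, and with the background taken off 0 of 13 were called.

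Among the osteoblast markers, Pth1r, the receptor of parathyroid hormone, fell by 4.07 ± 0.44, the bone transcription factor gene Runx2 by 2.74 ± 0.38 and Alpl, alkaline phosphatase, by 3.54 ± 0.51 in MUT relative to WT (SE, limma adjusted p = 0.000864, 0.00165 and 0.00183). In REG relative to MUT 6 of the 12 rose and 0 fell, with Pth1r up by 2.94 ± 0.44, Alpl by 3.31 ± 0.51 and Ibsp, bone sialoprotein, by 3.23 ± 0.61 (SE, limma adjusted p = 0.0021, 0.00232 and 0.00458).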
